A study of Mus musculus with 54 samples.

Results

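The genes described here are 44 mouse genes of DNA replication out of 19653 genes listed in the deposited tables. They were chosen by their known role and not by a measured value, though with earlier results of these data known. They comprise 3 origin recognition genes, 3 genes of helicase loading and its control, the 6 subunits of the MCM helicase, 8 genes of helicase activation, 6 genes of the sliding clamp and its loader, 9 genes of the replicative polymerases and primase, 3 subunits of the single-strand binding protein, 2 genes of flap removal and ligation, and 4 genes of nucleotide supply. All 44 were listed, and all 44 passed the filter on low values that left 13391 genes in the test. The lowest value of any member was 13 reads in a library, so that fold changes of the lowest members rest on few reads.

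A chromosome is copied from origins that are first licensed. The origin recognition complex binds DNA, Cdc6 and Cdt1 help it to load pairs of MCM helicases, and geminin, encoded by Gmnn, blocks Cdt1 so that an origin is not loaded again within the same S phase. Loaded helicases are then activated by the Cdc7-Dbf4 kinase and by Mcm10, Cdc45 and the GINS complex, after which primase starts each strand, polymerases extend it on the PCNA clamp, and nucleases and a ligase join the fragments. Many of these genes are transcribed under E2F factors in cells that are preparing for S phase, and myogenic progenitors leave the cell cycle before they fuse into myotubes.

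RNA was measured in 6 lines of H2K mouse myogenic progenitors on day 0, day 1 and day 2 of differentiation (0, 24 and 48 h), with 3 libraries for each of the 18 groups and 54 libraries in all. H2K progenitors come from mice that carry a conditional viral large T antigen driven by an interferon-inducible promoter, and their proliferation medium contained interferon γ, which the differentiation medium lacked. According to the methods, the switch of medium also came with a higher incubation temperature and a lower carbon dioxide level. The lines were wildtype, EMD-/y (without emerin, a protein of the inner nuclear membrane whose loss causes Emery-Dreifuss muscular dystrophy), and EMD-/y progenitors transduced by lentivirus with wildtype emerin (+EMD) or with the disease mutants S54F, Δ95–99 or Q133H. The transduced lines therefore share the EMD-/y deletion and its parental line, were selected with puromycin at doses that differed between lines, and were kept in it during proliferation and differentiation according to the labels for mutant lines. Progenitors were plated at a higher density in the mutant lines than in the wildtype and EMD-/y lines for the differentiation samples. No untransduced wildtype line treated with puromycin and no vector-only library was analysed here, and whether a line descends from 1 clone is not stated. In these bulk libraries fewer cycling cells and less RNA per cycling cell cannot be told apart, and the methods give technical replicates within biological replicates, so the p-values measure the spread between these libraries, which may be technical.

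Libraries held 17086515 to 20215349 reads in listed genes, and 13 of the 44 members share exon bases with a gene on the opposite strand, whose reads cannot be told apart because no strand marking is stated. Emd itself had normalised read counts of 1151 to 2063 in the 9 wildtype libraries and at most 3 reads in the other 45, of which 32 had 0 reads, so the lentiviral emerin was not seen in the counts of the mouse gene. The myogenic markers Myod1, Des, Cdh15 and Itga7 were present in every group, Pax7 had group means between 2.23 and 2124, and the lists for fibroblasts, macrophages, endothelium and adipocytes were low, with Adipoq, Plin1, Lum, Adgre1 and Ptprc at or near 0. Libraries are named a, b and c within a group because they could not be tied to the replicate numbers in the labels. In each of the 6 groups of day 0 the letters run from the largest to the smallest size factor, the divisor used for normalisation. A letter shared between groups therefore does not show a shared replicate. Over all genes tested, 1 library (named c) stood apart from the other two in each of the 6 groups of day 0, with a median absolute log2 difference of 0.169 to 0.210 from their mean, while the other two differed from each other by 0.0741 to 0.113. Later libraries did so too over all genes, such as Q133H day 1 library a (0.187 against 0.0807 for the other two) and EMD-/y day 2 library a (0.188 against 0.0865). The muscle marker sum described further on was 53708 in Q133H day 0 library c against 8402 and 8447, and 103207 in EMD-/y day 0 library c against 41608 and 40293. The replication genes of these 6 libraries lay within -0.0716 to 0.0662 of the other two (median log2 difference), and what sets these libraries apart was not tested. In the replication genes themselves, Δ95–99 day 2 library a lay 0.312 lower (median log2 difference from the other 2, which differed from each other by 0.0851). Wildtype day 2 library b lay 0.236 higher, where the other 2 differed by 0.0848. In 3 other groups after day 0, 1 library stood further apart in these genes. Over the 44 genes, wildtype day 1 library a lay 0.632 higher (median log2 difference from the other two), EMD-/y day 1 library a lay 0.566 higher, and Q133H day 2 library c lay 0.852 lower. Counts of called members that rest on those groups are also given without these 3 libraries, a choice made after their values had been seen. The 3 were picked by their values in the 44 genes themselves. Leaving out a wildtype library that is high in the members raises their differences from wildtype by construction. Such counts show how far a result rests on those libraries and are no further support for it.

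The members' share of the reads differed between days and lines. In wildtype progenitors the 44 genes held 0.517%, 0.518% and 0.520% of the reads on day 0, 0.251%, 0.294% and 0.417% on day 1 and 0.096%, 0.0961% and 0.114% on day 2. EMD-/y progenitors lay below this on day 0 and overlapped it afterwards, with 0.474%, 0.485% and 0.488% on day 0, 0.262%, 0.289% and 0.417% on day 1 and 0.104%, 0.109% and 0.110% on day 2. In +EMD progenitors the share was 0.572%, 0.603% and 0.605% on day 0, 0.729%, 0.731% and 0.738% on day 1 and was 0.304%, 0.309% and 0.334% on day 2. On day 2 the wildtype, EMD-/y and S54F libraries overlapped (0.101%, 0.112% and 0.117% in S54F), whereas all libraries of Q133H (0.153%, 0.265% and 0.269%), Δ95–99 (0.276%, 0.318% and 0.331%) and +EMD lay above every wildtype library. The ranges of Δ95–99 and +EMD overlapped each other.

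**Figure D1:**
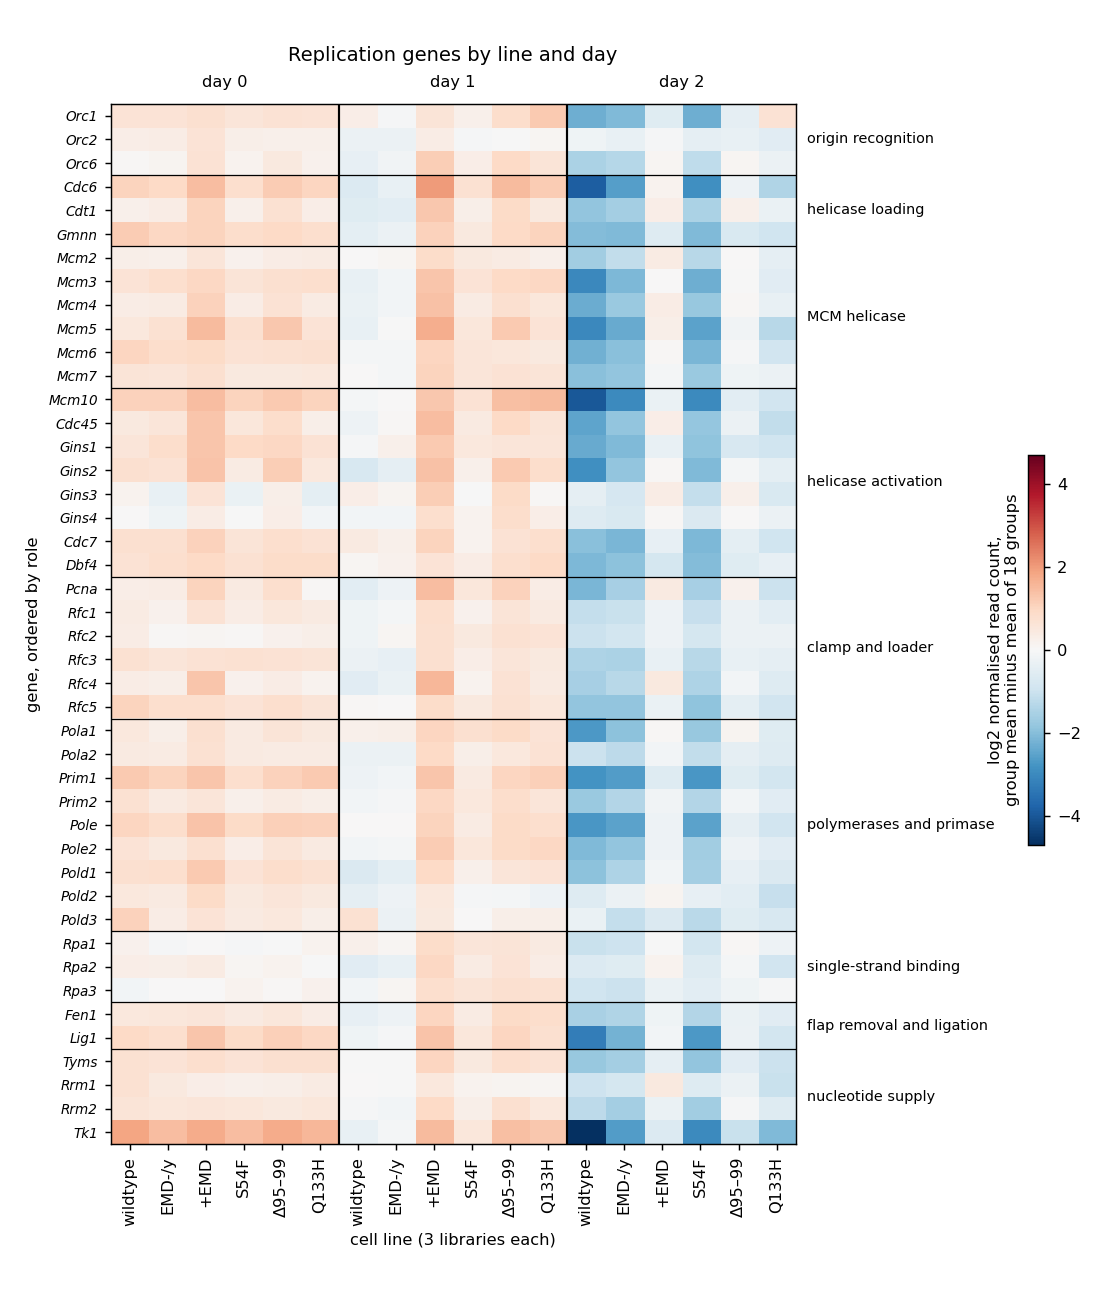
Heat map of the 44 replication genes (rows, grouped by role) in the 18 groups (columns, ordered by day and then line); colour gives the group mean of the log2 normalised read count minus the gene's mean over the 18 groups, with 3 libraries in each group. The day 2 columns of wildtype, EMD-/y and S54F are the darkest blue, Orc2, Gins4 and Rfc2 vary least, and the day 1 column of +EMD holds the highest value of 29 of the 44 genes.

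The first comparison asked how replication genes change from one day to the next within a line. A gene was called changed when its limma adjusted p was under 0.05 and its change at least 2-fold, on a log2 scale of normalised read counts with 1 added, which understates the change of genes near 0. From day 0 to day 1, 10 of 44 members fell in wildtype, where 10.1% of all genes tested fell, and 7 fell in EMD-/y, where 8.63% of all genes fell. None was called higher in either line, where 12.0% and 12.0% of all genes were. The wildtype genes were Tk1, Cdc6, Gmnn, Gins2, Prim1, Pold1, Mcm10, Lig1, Mcm6 and Pole, and the EMD-/y genes were Tk1, Cdc6, Gmnn, Pold1, Prim1, Gins2 and Mcm10. Without the library that stood apart, 21 members fell in wildtype (with 11% of all genes) and 14 in EMD-/y (with 9.28%).

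No member was called over the same day in the 4 transduced lines. The shares of all genes called lower there were 5.91% in +EMD, 5.91% in S54F, 5.97% in Δ95–99 and 6.30% in Q133H, and those called higher 11.0%, 9.25%, 6.85% and 5.20%. The unadjusted limma p was under 0.05 for 15 members in +EMD, 14 in S54F, 13 in Δ95–99 and 13 in Q133H, and limma with voom weights called 0, 0, 0 and 0. The median log2 change of the members was -0.75 in wildtype and -0.63 in EMD-/y, against 0.22 in +EMD, -0.13 in S54F, 0.09 in Δ95–99 and 0.16 in Q133H. Over all genes the median change lay between -0.0329 and 0.0225 in the 6 lines.

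From day 1 to day 2 members fell in every line and none was called higher, while among all genes 7.71% rose in wildtype, 7.13% in EMD-/y, 10.4% in +EMD, 8.67% in S54F, 8.87% in Δ95–99 and 6.56% in Q133H. The number called was 34 in wildtype (11.7% of all genes fell), 32 in EMD-/y (11.0%), 33 in +EMD (9.35%), 40 in S54F (10.7%), 18 in Δ95–99 (5.20%) and 29 in Q133H (4.18%). Without the 3 libraries that stood apart the number was 28 in wildtype (11.8% of all genes), 26 in EMD-/y (11.1%) and 22 in Q133H (3.08%). The median log2 change of the members was -2.14 in S54F, -1.63 in wildtype, -1.45 in EMD-/y, -1.28 in Q133H, -1.15 in +EMD and -0.95 in Δ95–99. The genes not called in wildtype were Orc2, Gins3, Gins4, Rfc1, Rfc2, Pola2, Pold2, Rpa2, Rpa3 and Rrm1, and among them Orc2 had a log2 change of 0.07, Rpa2 of -0.10 and Pold2 of -0.17. Scaling by total counts instead of size factors shifted the median of all genes in these day-to-day comparisons by -0.30 to 0.06, and no median of the members changed sign with it.

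**Figure D2:**
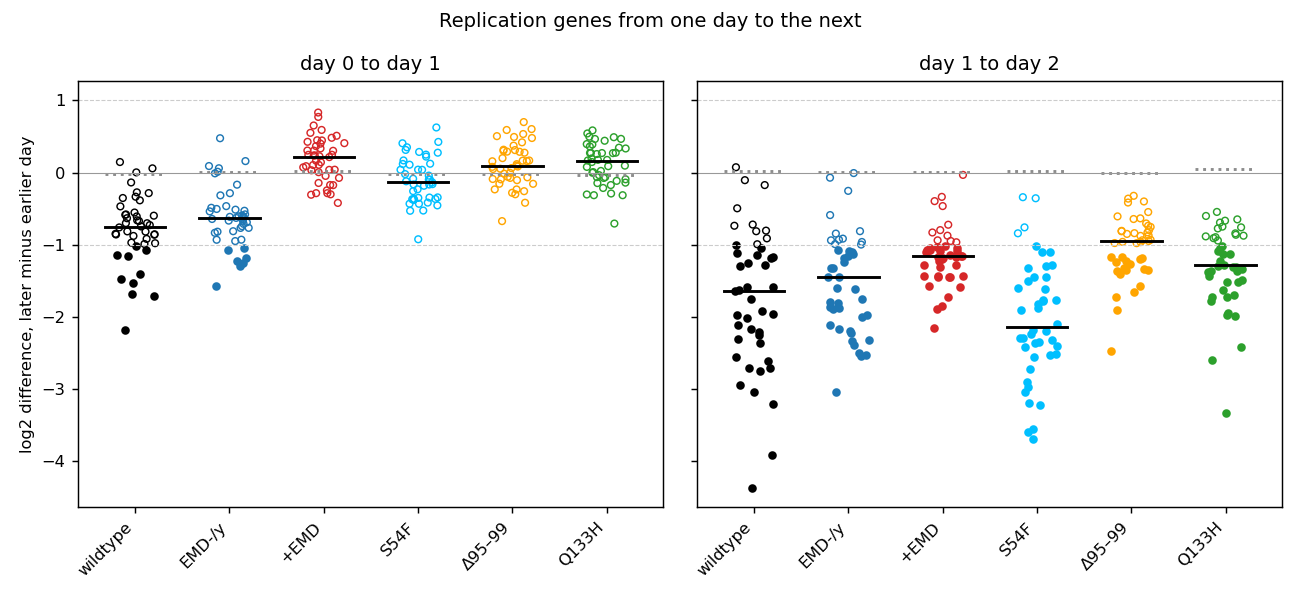
Log2 change of each of the 44 members from one day to the next in each line (vertical axis, later minus earlier day; 1 point per gene, filled where called). Black bars mark the median of the members and dotted grey bars the median of all 13391 genes; in the left panel the wildtype and EMD-/y points lie mostly below 0 while those of the 4 transduced lines surround 0, and in the right panel nearly all points lie below 0.

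The second comparison set each line against wildtype on the same day. The 5 comparisons of a day share the wildtype libraries. On day 0 no member was called in any line, while 7.41% of all genes were called in EMD-/y, 15.8% in +EMD, 10.6% in S54F, 10.7% in Δ95–99 and 13.4% in Q133H. The unadjusted limma p was under 0.05 for 6, 18, 7, 8 and 7 members in these lines in the same order, and limma with voom weights called 0, 0, 0, 0 and 0. The median log2 difference of the members was 0.28 in +EMD and between -0.08 and 0.05 in the other lines, and in +EMD 15 members were higher at an adjusted p under 0.05 without reaching 2-fold (24.8% of all genes were higher at that p).

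On day 1, in EMD-/y, no member was called (4.02% of all genes were higher and 2.08% lower; 2 members had an unadjusted limma p under 0.05 and voom weights gave 0 calls). In +EMD 27 members were higher than in wildtype (8.67% of all genes), in Δ95–99 19 (8.84%), in Q133H 11 (9.34%) and in S54F 2 (5.55%). None was called lower, while of all genes 9.57%, 11.1%, 13.6% and 5.15% were in these lines. These counts depend on wildtype library a, which lay high in these same genes, so leaving it out favours higher counts by construction. Without the 3 libraries that stood apart, 34 members were higher in +EMD, 26 in Δ95–99, 22 in Q133H and 13 in S54F, against 9.44%, 9.94%, 10.1% and 6.12% of all genes. The 2 genes called in S54F with all libraries were Cdc6 and Pcna, and the 2-fold limit held back most others, since 32 members passed the adjusted p alone (20.7% of all genes did).

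On day 2 members were higher in +EMD (33 of 44; 10.5% of all genes), Δ95–99 (33; 12.9%) and Q133H (28; 17.4%). In EMD-/y 4 were higher (4.73% of all genes), namely Tk1, Cdc6, Lig1 and Gins2, and in S54F only Tk1 was (6.19% of all genes), a count that voom weights brought to 1 in EMD-/y and 0 in S54F. No member was called lower in any line at the 2-fold limit, against 6.81% of all genes in +EMD, 7.98% in Δ95–99, 14.4% in Q133H, 2.36% in EMD-/y and 3.94% in S54F. At an adjusted p under 0.05 without that limit, Pold3 was lower in EMD-/y, +EMD, S54F and Q133H, Gins3 and Rrm2 in S54F, and Orc2 and Pold2 in Q133H, with log2 differences between -0.98 and -0.33. Without the 3 libraries that stood apart, 32 members were higher in Q133H (19.8% of all genes). The median log2 difference of the members from wildtype was 1.65 in +EMD, 1.55 in Δ95–99, 1.19 in Q133H, 0.20 in EMD-/y and 0.20 in S54F, and that of all genes was between -0.0043 and 0.0144. Wildtype day 2 held the lowest group mean of 28 of the 44 members.

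**Figure D3:**
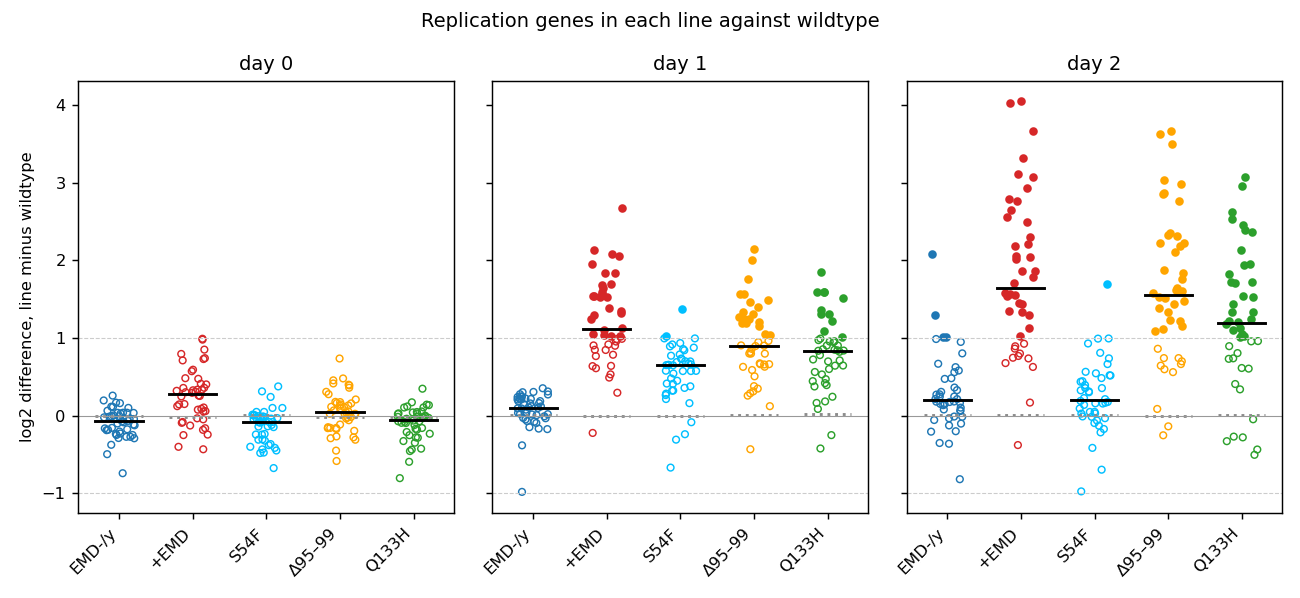
Log2 difference of each of the 44 members between a line and wildtype on day 0, 1 and 2 (vertical axis, line minus wildtype; 1 point per gene, filled where called). Black bars mark the median of the members and dotted grey bars the median of all 13391 genes; the points surround 0 on day 0, and on day 2 those of +EMD, Δ95–99 and Q133H reach 4.06, 3.66 and 3.08.

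The third comparison tested whether a line's change from one day to the next differed from the wildtype change. From day 0 to day 1 the difference was called positive, a smaller fall or a rise, for 21 members in +EMD (5.59% of all genes), 16 in Δ95–99 (4.59%), 15 in Q133H (7.42%) and 7 in S54F (2.88%). It was called for no member in EMD-/y (0.299% of all genes; 3 members at an unadjusted limma p under 0.05, and 0 with voom weights). Without the 3 libraries that stood apart the counts were 28, 26, 26 and 19 in the same order, against 6.9%, 6.19%, 8.37% and 4.32% of all genes. From day 1 to day 2 it was called positive for 15 members in Δ95–99 (8.08% of all genes), 11 in +EMD (5.50%), 8 in Q133H (10.9%) and 1 in EMD-/y (0.478%), which was Tk1. Without those libraries it was called for 11 in Δ95–99 (8.91%), 8 in +EMD (6.81%) and 13 in Q133H (12.7%). The Q133H calls are 18.2% of the members. Rpa2 was the single member called with a negative difference in that line (4.05% of all genes), of -1.17 ± 0.23 (SE; limma adjusted p = 9.5e-05). In S54F none was called (1.86% of all genes; 13 members at an unadjusted limma p under 0.05, and 0 with voom weights), whereas 2 were lower without the libraries that stood apart.

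Each transduced line was also set against its parental line on the same day, a comparison added after the data had been seen. On day 0, 1 member was higher in +EMD (2.25% of all genes tested) and 0, 0 and 0 in S54F, Δ95–99 and Q133H (1.04%, 1.84% and 3.11%). On day 1, 28 members were higher in +EMD (4.86%), 15 in Δ95–99 (4.99%), 11 in Q133H (6.00%) and 1 in S54F (1.78%). On day 2, 35 were higher in +EMD (7.01%), 34 in Δ95–99 (9.86%), 21 in Q133H (15.4%) and 0 in S54F (0.754%).

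Where no member was called, the unadjusted limma p was under 0.05 for 1, 8 and 0 members on day 0 in S54F, Δ95–99 and Q133H and for 3 on day 2 in S54F, and voom weights called 0, 0, 0 and 0. The S54F gene of day 1 was lost in 5 of 6 fits that left out a library and without the filter on low counts. Without the 3 libraries that stood apart, 31 members were higher than in EMD-/y on day 1 in +EMD (5.88% of all genes), 27 in Δ95–99 (6.11%), 15 in Q133H (6.96%) and 2 in S54F (2.43%), and 29 on day 2 in Q133H (18.3%). Leaving out each library in turn gave 9 to 27 in Δ95–99 and 7 to 15 in Q133H on day 1, and 14 to 29 in Q133H on day 2. Among single members on day 2, Mcm5 differed from EMD-/y by 2.65 ± 0.22 (SE; limma adjusted p = 1.6e-12) in +EMD, by 2.20 ± 0.22 (SE; limma adjusted p = 1.3e-10) in Δ95–99 and by 1.06 ± 0.22 (SE; limma adjusted p = 4.4e-05) in Q133H, and Mcm10 by 2.68 ± 0.32 (SE; limma adjusted p = 7e-09), 2.51 ± 0.32 (SE; limma adjusted p = 2.2e-08) and 2.09 ± 0.32 (SE; limma adjusted p = 3e-07) in the same lines.

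Muscle and proliferation genes also differed between these groups. The summed normalised read count of 6 differentiating muscle markers (Myog, Mymk, Myh3, Ckm, Tnnt2 and Actc1) on day 2 was 529199 to 631169 in wildtype, 567948 to 766908 in EMD-/y, 588552 to 662628 in S54F, 428786 to 515244 in +EMD, 209116 to 313647 in Δ95–99 and 24514 to 144412 in Q133H. The markers did not move alike. On day 2 the Actc1 mean was 104432 in wildtype against 234991 in EMD-/y, 248315 in S54F and 233150 in +EMD. Myh3 was 287986 in wildtype, 307552 in EMD-/y, 238147 in S54F and 131734 in +EMD. The means of Myog, Mymk, Ckm and Tnnt2 were below wildtype in EMD-/y, S54F and +EMD. The +EMD libraries of day 2, whose shares of replication reads were all above those of Q133H, also had muscle marker sums above every Q133H library. The summed count of Mki67, Top2a and Ccna2, which mark cycling cells, was 355 to 528 in wildtype on day 2, 1244 to 1527 in EMD-/y, 1139 to 1686 in S54F, 1389.5 to 5889.8 in Q133H, 5563 to 8345 in Δ95–99 and 7574 to 8865 in +EMD. All 3 were called higher than wildtype in each line on day 2, as were 4.73% of all genes in EMD-/y, 6.19% in S54F, 17.4% in Q133H, 12.9% in Δ95–99 and 10.5% in +EMD. Among the 3 libraries that stood apart, the muscle sum was 143207 in wildtype day 1 library a against 169210.5 and 204320.5 in the other two, 165306 in EMD-/y day 1 library a against 236378 and 250509, and 144412 in Q133H day 2 library c against 24514 and 32220.1. Q133H also differed in other markers. Pax7, a transcription factor of muscle stem cells, had 3.94, 8.47 and 12.3 in Q133H on day 2 against 40.2, 49.2 and 80.8 in wildtype, and its group means were 2.23, 5.56 and 8.22 in Q133H on days 0, 1 and 2 and 56.7 to 2124 in the other groups. Of the 6 progenitor markers, 4 were called lower and 1 higher than wildtype in Q133H on day 1 and the same numbers on day 2. Of all genes, 13.6% were lower and 9.34% higher in that line on day 1, and 14.4% and 17.4% on day 2. The 4 fibroblast markers summed to 69.0 to 78.1 in Q133H on day 2 against 40.2 to 53.9 in wildtype, and to 8.16 to 78.1 over all libraries, with Lum at or near 0. Pdgfra, the single fibroblast marker that passed the filter, was called higher there, with a log2 difference of 1.11 ± 0.39 (SE; limma adjusted p = 0.010), and in Δ95–99 its log2 difference was -1.24. The 3 macrophage markers summed to 71.0 to 149 in Q133H on day 2 against 19.0 to 29.3 in wildtype, nearly all of it Cd68, which was 2.10 ± 0.28 (SE; limma adjusted p = 3.2e-08) higher, while Ptprc and Adgre1 were at or near 0. The part of these markers in the replication gene differences was not tested, and plating density, puromycin and line cannot be told apart.

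**Figure D4:**
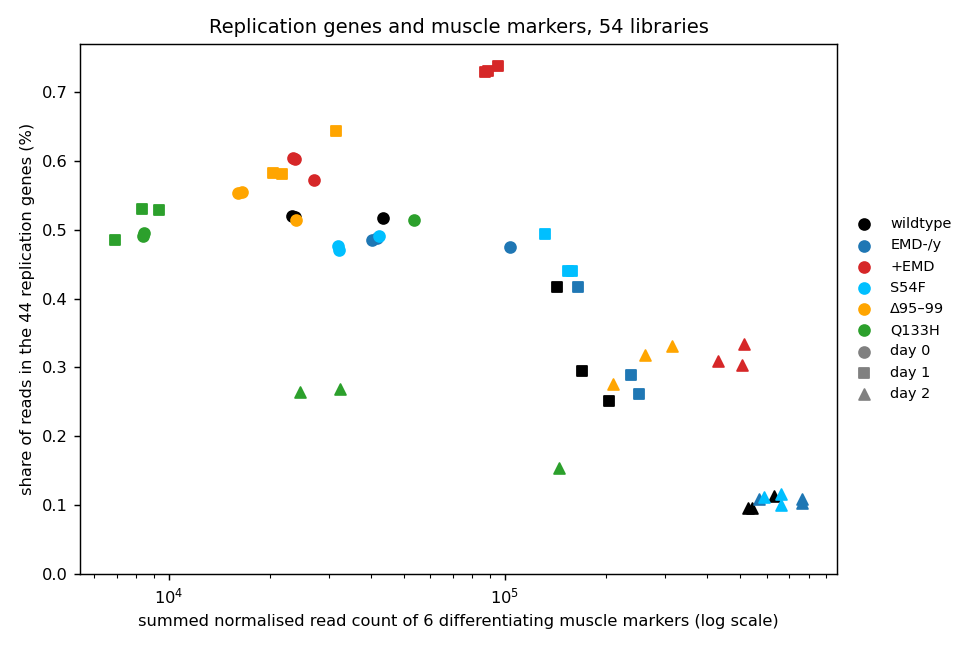
Share of each library's reads in the 44 replication genes (vertical axis, %) against the summed normalised read count of 6 differentiating muscle markers (horizontal axis, log scale) in the 54 libraries, coloured by line and shaped by day. The wildtype, EMD-/y and S54F libraries of day 2 lie at the lower right, the +EMD and Δ95–99 libraries of day 2 above them, and the Q133H libraries of day 2 to the left.

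The next paragraphs give the members by role, with the 3 library values from low to high as normalised read counts. In each role the genes described in full are those with the widest and the narrowest range of group means over the 18 groups.

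**Figure D5:**
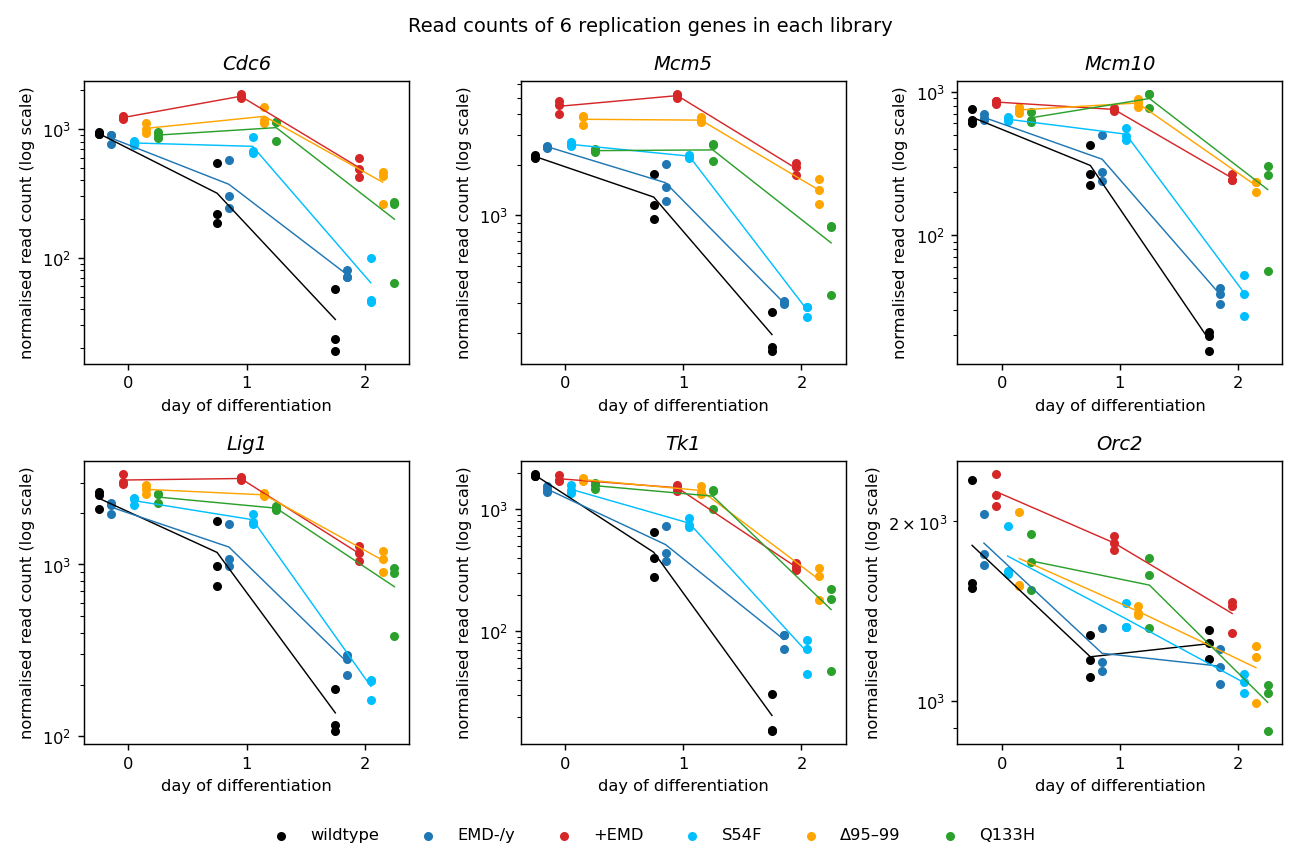
Normalised read counts (log scale) of Cdc6, Mcm5, Mcm10, Lig1, Tk1 and Orc2 in every library by day, with 1 colour per line, 1 point per library and lines joining group means. On day 2 the first 5 genes have their lowest group mean in wildtype and their highest in +EMD, while the group means of Orc2 span 1.18 on the log2 scale.

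Origin recognition genes differed widely from each other. Orc1, the subunit whose level in cells follows the cycle, varied by 3.52 (log2) between the highest and lowest group mean. Its counts in wildtype were 229.5, 235 and 252 on day 0, 159, 188 and 226 on day 1 and 24.6, 26.8 and 42.2 on day 2. On day 2 they were 106, 363 and 372 in Q133H, 105, 111 and 126 in Δ95–99 and 88.0, 98.3 and 121 in +EMD, all above every wildtype library, and 24.7, 41.2 and 43.1 in EMD-/y and 18.9, 33.5 and 42.2 in S54F. The day 2 difference from wildtype was 2.96 ± 0.28 (SE; limma adjusted p = 6.6e-12) in Q133H, the highest of any line. Between day 1 and day 2 the log2 change of Orc1 in Q133H was -0.54 ± 0.28 (SE; limma adjusted p = 0.11), or 0.05 without the libraries that stood apart, whereas it fell by 2.60 in wildtype.

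Orc2, a core subunit of the same complex, had the narrowest range of all 44 members (1.18). Its wildtype counts were 1546, 1576 and 2349 on day 0, 1094, 1171 and 1291 on day 1 and 1176, 1248 and 1316 on day 2, so the later days overlapped. No line reached 2-fold against wildtype on any day, and the largest was 0.64 ± 0.12 (SE; limma adjusted p = 3.1e-05) in +EMD on day 1. Some 1150 exon bases of Orc2 overlap Nif3l1 on the opposite strand, the longest such stretch but for Gins2 and Fen1. Orc6, the smallest subunit, fell by 1.11 in wildtype from day 1 to day 2 and was higher on day 2 in +EMD by 1.58 and in Δ95–99 by 1.61 (log2).

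All 3 helicase loading genes were higher than wildtype on day 2 in +EMD, Δ95–99 and Q133H (10.5%, 12.9% and 17.4% of all genes). Cdc6, the ATPase that with the origin recognition complex closes the MCM ring on DNA, had counts of 909.6, 914 and 946 in wildtype on day 0, 185, 219 and 549 on day 1 and 19.0, 23.4 and 57.4 on day 2. In +EMD they were 1207, 1215 and 1262, then 1744, 1777 and 1878, then 422, 487 and 600.2 on the same days. In Δ95–99 the day 2 counts were 262, 434 and 465. Neither line overlapped wildtype on day 2, nor did +EMD on day 1. The log2 difference from wildtype on day 2 was 4.03 ± 0.38 (SE; limma adjusted p = 2.1e-11) in +EMD and 3.62 ± 0.38 (SE; limma adjusted p = 2.8e-10) in Δ95–99, or 16.3-fold and 12.3-fold. In EMD-/y the day 2 counts of Cdc6 were 70.7, 70.7 and 80.8, with a difference of 1.29 ± 0.38 (SE; limma adjusted p = 0.012), and in S54F they were 45.1, 47.3 and 99.7, with a difference of 0.99 ± 0.38 (SE; limma adjusted p = 0.041) that stayed under 2-fold. In Q133H they were 64.1, 264 and 271, where the low value is library c, and the difference was 2.45 with that library and 3.14 without the libraries that stood apart.

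Cdt1, which brings the helicase to the origin, varied least in this role (3.12). Wildtype libraries had counts of 1261, 1321 and 1397 on day 0, 585, 606 and 1207 on day 1 and 253, 279 and 418 on day 2. On day 2 they were 1326, 1330.4 and 1571 in +EMD and 1187, 1353 and 1484 in Δ95–99, about the level of wildtype on day 0, with differences of 2.18 ± 0.20 (SE; limma adjusted p = 1.1e-11) and 2.11 ± 0.20 (SE; limma adjusted p = 2.6e-11). Gmnn, whose product holds Cdt1 back, fell by 1.68 in wildtype from day 0 to day 1. Over that day Cdt1 had a log2 change of -0.81 ± 0.20 (SE; limma adjusted p = 0.00062), or -1.15 without the libraries that stood apart. The 2 genes were not tested against each other. Over the same day Gmnn had a log2 change of 0.07 ± 0.22 (SE; limma adjusted p = 0.8) in +EMD and 0.28 ± 0.22 (SE; limma adjusted p = 0.32) in Q133H.

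The 6 MCM genes fell together from day 1 to day 2 in wildtype, EMD-/y and S54F, where 6 of 6 were called, against 4 in +EMD, 3 in Q133H and 1 in Δ95–99. Of all genes, 11.7%, 11.0% and 10.7% fell in the first 3 lines, 9.35% in +EMD, 4.18% in Q133H and 5.20% in Δ95–99. Against wildtype on day 2 all 6 were higher in +EMD, Δ95–99 and Q133H (10.5%, 12.9% and 17.4% of all genes), whereas no MCM gene passed in EMD-/y or S54F (4.73% and 6.19% of all genes were higher). Their median log2 difference was 2.48 in +EMD, 2.27 in Δ95–99, 1.71 in Q133H, 0.53 in EMD-/y and 0.41 in S54F. Per kilobase of the deposited gene length, wildtype day 0 levels of these subunits of the same hexamer ran from 649 normalised reads for Mcm5 to 2073 for Mcm6.

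Mcm5 varied most among them (4.76). Its wildtype counts were 2193, 2235 and 2272 on day 0, 945, 1150.2 and 1756 on day 1 and 156, 164 and 266 on day 2. In +EMD they were 4016, 4549.8 and 4784, then 5008, 5170.0 and 5275, then 1727, 1939 and 2059.6, above wildtype on every day. The difference was 0.99 ± 0.22 (SE; limma adjusted p = 0.0002) on day 0, just under 2-fold, and 3.32 ± 0.22 (SE; limma adjusted p = 8e-16) on day 2. In Δ95–99 Mcm5 was 2.87 ± 0.22 (SE; limma adjusted p = 4.9e-14) higher on day 2 and in Q133H 1.73 ± 0.22 (SE; limma adjusted p = 5.8e-09). Mcm2 varied least (2.48), with wildtype counts of 4101, 4273 and 4452 on day 0, 2659.8, 3143 and 5171 on day 1 and 974, 985 and 1523 on day 2. In +EMD the day 2 counts were 4304, 4423 and 5054, which lie within or above those of wildtype on day 0, and the difference from wildtype on day 2 was 2.01 ± 0.18 (SE; limma adjusted p = 3e-12).

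Promoters of the members were read from RefSeq (GRCm38.p6, the assembly also called mm10, 250 bases before to 50 after a start), which held 36 of the 44 members. The E2F consensus was searched on both strands as TTTCCCGC, TTTCGCGC, TTTGCCGC and TTTGGCGC. It occurred in 14 of the 36 members (38.9%) and in 2.6% of all 27025 genes in the table, counting a gene when any of its starts had a match. CCAAT, searched on both strands, occurred in 22 of the 36 (61.1%) and 41.1% of all genes. The promoters with the most E2F matches were those of Mcm6, with 3, and of Mcm3, Mcm5, Mcm7 and Rfc3, with 2 each. Matches on the 2 strands were counted separately even where they overlap. The 2 matches of Mcm5 overlap each other, and so do 2 of the 3 matches of Mcm6. The 4 promoters shown were taken by the most E2F matches and then by alphabetical order, so Rfc3, tied on matches, was left out. Capitals mark the E2F matches on either strand.
Mcm6, chr1:128359656-128359955, minus strand: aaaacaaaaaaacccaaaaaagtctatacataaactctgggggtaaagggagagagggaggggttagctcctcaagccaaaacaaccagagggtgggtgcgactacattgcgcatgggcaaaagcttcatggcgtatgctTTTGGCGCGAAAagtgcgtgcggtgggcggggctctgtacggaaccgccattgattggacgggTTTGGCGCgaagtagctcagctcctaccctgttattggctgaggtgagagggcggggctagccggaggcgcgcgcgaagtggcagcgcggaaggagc
Mcm3, chr1:20820263-20820562, minus strand: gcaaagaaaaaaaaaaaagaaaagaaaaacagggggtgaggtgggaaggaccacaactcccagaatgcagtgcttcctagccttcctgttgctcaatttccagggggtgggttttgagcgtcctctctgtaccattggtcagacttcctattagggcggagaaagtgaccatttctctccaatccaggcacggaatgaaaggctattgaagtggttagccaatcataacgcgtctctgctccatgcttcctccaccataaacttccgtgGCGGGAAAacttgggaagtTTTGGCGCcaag
Mcm5, chr8:75109259-75109558, plus strand: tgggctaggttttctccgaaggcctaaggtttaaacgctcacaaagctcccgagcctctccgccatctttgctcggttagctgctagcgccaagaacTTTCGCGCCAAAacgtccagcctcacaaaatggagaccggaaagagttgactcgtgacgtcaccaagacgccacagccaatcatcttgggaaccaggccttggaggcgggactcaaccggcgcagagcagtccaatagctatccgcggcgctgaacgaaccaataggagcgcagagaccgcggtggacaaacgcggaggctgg
Mcm7, chr5:138171834-138172133, minus strand: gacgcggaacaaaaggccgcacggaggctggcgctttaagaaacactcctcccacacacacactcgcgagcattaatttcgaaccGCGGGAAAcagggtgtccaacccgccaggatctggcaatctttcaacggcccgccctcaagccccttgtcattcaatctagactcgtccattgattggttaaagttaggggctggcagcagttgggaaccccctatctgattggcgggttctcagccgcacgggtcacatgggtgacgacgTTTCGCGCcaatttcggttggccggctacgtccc
A match describes letters in a window, and binding was not measured. Mcm2 and Tk1 are in the table without a match, and their log2 changes in wildtype from day 1 to day 2 were -1.63 and -4.36. Whether E2F factors acted on any member was not tested.

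The 8 helicase activation genes varied by between 1.54 and 5.50 on the log2 scale. Mcm10, which acts when loaded helicases are switched on, had the third widest range of all members, after Tk1 and Cdc6. Wildtype libraries had counts of 603, 629.8 and 757 on day 0, 225, 267 and 426 on day 1 and 15.6, 19.9 and 21.1 on day 2. On day 2 they were 241, 242 and 267 in +EMD, 199.7, 233 and 233 in Δ95–99 and 56.2, 263 and 305 in Q133H, none overlapping wildtype. The day 2 differences were 3.67 ± 0.32 (SE; limma adjusted p = 1.8e-12), 3.50 ± 0.32 (SE; limma adjusted p = 6.2e-12) and 3.08 ± 0.32 (SE; limma adjusted p = 5.7e-11), the last being 3.85 without the libraries that stood apart. In EMD-/y and S54F Mcm10 was at 33.0, 38.9 and 43.1 and 27.2, 38.7 and 53.2, with differences of 0.99 ± 0.32 (SE; limma adjusted p = 0.021) and 0.99 ± 0.32 (SE; limma adjusted p = 0.013), both just under 2-fold. The smaller fall of Mcm10 from day 1 to day 2 was the largest difference from the wildtype change of any member, at 2.32 ± 0.45 (SE; limma adjusted p = 0.00017) in +EMD.

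Gins4, a subunit of the GINS complex that joins the helicase to Cdc45, varied least in this role (1.54). Its wildtype counts were 739, 832 and 848 on day 0, 621, 695 and 909.7 on day 1 and 494, 515 and 551 on day 2, of which day 0 and day 1 overlap. It reached 2-fold against wildtype in no line on any day, and its day 1 differences were 0.95 ± 0.11 (SE; limma adjusted p = 2.2e-09) in Δ95–99 and 0.90 ± 0.11 (SE; limma adjusted p = 5.1e-09) in +EMD. The 4 GINS genes did not move alike although their products form a single complex: from day 1 to day 2 in wildtype Gins1 fell by 2.31 and Gins2 fell by 2.10, whereas Gins3 had a log2 change of -0.72 ± 0.15 (SE; limma adjusted p = 8.6e-05) and Gins4 of -0.49 ± 0.11 (SE; limma adjusted p = 0.00015). Gins2 shares 2758 exon bases with Gse1 on the opposite strand, so its level is uncertain. Cdc45, Cdc7 and its activator Dbf4 also fell in that interval: Cdc45 fell by 2.25, Cdc7 fell by 2.36 and Dbf4 fell by 2.20.

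Of the clamp and its loader, Pcna, the ring that tethers the polymerases, varied most (3.59). Its counts in wildtype were 5472, 5485 and 5521 on day 0, 2330.0, 2648 and 4904 on day 1 and 906, 917 and 1201 on day 2. In +EMD they were 8977, 9053 and 9289, then 11471, 12086 and 12718, then 5489, 5825 and 6345, so day 2 in +EMD lay at about the wildtype day 0 level. The day 2 difference was 2.55 ± 0.19 (SE; limma adjusted p = 3.5e-14) in +EMD, 2.33 ± 0.19 (SE; limma adjusted p = 4.6e-13) in Δ95–99 and 1.11 ± 0.19 (SE; limma adjusted p = 2.9e-06) in Q133H. A processed pseudogene, Pcna-ps2, matches 357 bases of Pcna at 97.8% identity, and reads could be split between them. Rfc2, a small subunit of the clamp loader, varied least (1.76), with 1059, 1207 and 1239.9 in wildtype on day 0, 672, 733 and 1018 on day 1 and 436, 447 and 482 on day 2. Its differences from wildtype on day 2 were 0.75 ± 0.12 (SE; limma adjusted p = 3.3e-06) in +EMD and 0.73 ± 0.12 (SE; limma adjusted p = 2.2e-06) in Q133H, under 2-fold in both. Among the loader genes Rfc4 stood out in +EMD on day 0, at 965, 979.7 and 1097 against 477, 515 and 549 in wildtype, with a difference of 0.98 ± 0.15 (SE; limma adjusted p = 1.5e-06).

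Polymerase and primase genes were called lower from day 1 to day 2 in 7 of 9 cases in wildtype, 8 in S54F and Q133H, 7 in +EMD, 5 in EMD-/y and 3 in Δ95–99. Of all genes, 11.7% were lower in wildtype, 10.7% in S54F, 4.18% in Q133H, 9.35% in +EMD, 11.0% in EMD-/y and 5.20% in Δ95–99. Prim1, the catalytic subunit of primase, varied most (4.10), with wildtype counts of 1159, 1182 and 1367 on day 0, 374, 443 and 518 on day 1 and 55.0, 71.5 and 103 on day 2. On day 2 they were 333, 336 and 369.6 in +EMD, 287, 382 and 393 in Δ95–99 and 131, 410.1 and 441 in Q133H, all above wildtype, with differences of 2.21 ± 0.25 (SE; limma adjusted p = 1e-09), 2.23 ± 0.25 (SE; limma adjusted p = 7.8e-10) and 1.94 ± 0.25 (SE; limma adjusted p = 7.1e-09). Pold2, an accessory subunit of the lagging-strand polymerase, varied least (2.00). Wildtype libraries had counts of 1083, 1208 and 1346, then 531, 573 and 858, then 514, 556 and 637, and its log2 change from day 1 to day 2 was -0.17 ± 0.16 (SE; limma adjusted p = 0.34). In Q133H Pold2 had 333, 418 and 456 on day 2, with a difference from wildtype of -0.50 ± 0.16 (SE; limma adjusted p = 0.0042), opposite in sign to most members in that line.

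Pold3, another subunit of the same polymerase, was picked out after its values had been seen. Its counts on day 0 were 1017, 1038 and 1039.7 in wildtype and 580.0, 625 and 647 in EMD-/y, 743, 747 and 802 in +EMD, 596, 662 and 681 in S54F, 617, 720.1 and 731 in Δ95–99 and 549, 571 and 655 in Q133H. Every wildtype library was above every library of the 5 other lines, as was also the case for Rfc5 and Rrm1 on day 0. Of all genes tested, 18.2% in EMD-/y had every library below every wildtype library on day 0. The share was 30.3% in +EMD, 22.3% in S54F, 24.6% in Δ95–99 and 25.3% in Q133H, each line taken alone. The day 0 difference was -0.74 ± 0.13 (SE; limma adjusted p = 3.4e-05) in EMD-/y, -0.43 ± 0.13 (SE; limma adjusted p = 0.0052) in +EMD, -0.68 ± 0.13 (SE; limma adjusted p = 8.3e-05) in S54F, -0.58 ± 0.13 (SE; limma adjusted p = 0.00047) in Δ95–99 and -0.81 ± 0.13 (SE; limma adjusted p = 4.3e-06) in Q133H, in each case under 2-fold. Those 5 lines descend from the same EMD-/y parental line and share the wildtype libraries, so they are not independent of each other. Pold3 was also lower on day 2 in EMD-/y (-0.82) and S54F (-0.98), where it was the member with the lowest difference.

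The single-strand binding genes, whose 3 products coat unwound DNA, had the highest median change of the 9 roles from day 0 to day 1 in each of the 6 lines. It was 0.00 in wildtype, 0.06 in EMD-/y, 0.77 in +EMD, 0.60 in Δ95–99, 0.43 in S54F and 0.39 in Q133H, and no Rpa gene was called. The 3 genes did not move alike, since the lowest change among them was -0.86 in wildtype and -0.63 in EMD-/y. In Q133H the median was 0.395 against 0.389 for origin recognition. Rpa2 had the widest range (1.90), with 785, 794 and 806 in wildtype on day 0, 375, 381 and 589.8 on day 1 and 354, 409 and 468 on day 2, the later days overlapping. In +EMD it was at 1225, 1256 and 1308 on day 1, 1.52 ± 0.16 (SE; limma adjusted p = 5e-10) above wildtype. Rpa3 had the narrowest range (1.79), with 246, 251 and 299 on day 0, 242, 243 and 316 on day 1 and 149, 149 and 155 on day 2 in wildtype. On day 2 its difference from wildtype was 0.63 ± 0.14 (SE; limma adjusted p = 0.00017) in +EMD and 0.89 ± 0.14 (SE; limma adjusted p = 3.1e-07) in Q133H, both under 2-fold.

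Lig1, the ligase that joins fragments of the lagging strand, varied by 4.57. Its wildtype counts were 2104, 2555 and 2632 on day 0, 747, 985 and 1794 on day 1 and 107, 116 and 187 on day 2. On day 2 they were 1045, 1165 and 1274 in +EMD, 902, 1083 and 1193 in Δ95–99, 384, 892 and 951 in Q133H, 227, 283 and 299 in EMD-/y and 163, 209 and 214 in S54F. All EMD-/y libraries lay above all wildtype libraries, with a difference of 1.01 ± 0.24 (SE; limma adjusted p = 0.0016), and S54F overlapped wildtype, with 0.55 ± 0.24 (SE; limma adjusted p = 0.073). Fen1, the nuclease that removes the flap before ligation, varied less (2.54), with 1261, 1275 and 1300.0, then 549.9, 626 and 978, then 294, 307 and 344 in wildtype, and was 1.34 ± 0.17 (SE; limma adjusted p = 1.1e-08) higher in +EMD on day 2. Gm10143 overlaps 1909 exon bases of Fen1 on the opposite strand, so its reads cannot be assigned with certainty.

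The nucleotide genes held both the most and nearly the least variable members. Tk1, the thymidine kinase of the salvage route, ranged over 6.54, the widest of the 44. Wildtype libraries had counts of 1871, 1884 and 1947 on day 0, 281, 397 and 657 on day 1 and 15.2, 15.6 and 30.4 on day 2. From day 1 to day 2 its log2 change in wildtype was -4.36 ± 0.33 (SE; limma adjusted p = 6.2e-14), the largest change of any member in any line. On day 2 Tk1 was at 71.9, 92.9 and 93.0 in EMD-/y, 44.9, 71.7 and 84.5 in S54F, 47.3, 182 and 223 in Q133H, 179, 285 and 332 in Δ95–99 and 320.3, 335 and 362 in +EMD, each above every wildtype library. It was the single member called higher than wildtype in all 5 lines on that day, with differences of 2.08 ± 0.33 (SE; limma adjusted p = 5.4e-06), 1.69 ± 0.33 (SE; limma adjusted p = 9.1e-05), 2.62 ± 0.33 (SE; limma adjusted p = 5.2e-09), 3.66 ± 0.33 (SE; limma adjusted p = 4.6e-12) and 4.06 ± 0.33 (SE; limma adjusted p = 3e-13). Its EMD-/y fall from day 1 to day 2 was also smaller than in wildtype, by 1.84 ± 0.46 (SE; limma adjusted p = 0.036), a call that 4 alternative settings did not keep.

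Rrm1, the large subunit of ribonucleotide reductase, had counts in wildtype of 12028, 12364 and 12452 on day 0, 6976, 7465 and 7842 on day 1 and 3509, 3551 and 4163 on day 2. In +EMD it was at 10284, 10420.4 and 10564 on day 1 and 9234, 10690.3 and 10736 on day 2, which overlap, and its log2 change over that day was -0.03 ± 0.08 (SE; limma adjusted p = 0.76), with a 95% interval of -0.20 to 0.14. Its difference from wildtype on day 2 was 1.45 ± 0.08 (SE; limma adjusted p = 1.7e-17) in +EMD and -0.05 ± 0.08 (SE; limma adjusted p = 0.62) in Q133H, where 28 of the 44 members were higher. Rrm2, the small subunit, had a day 1 to day 2 log2 change of -1.23 ± 0.13 (SE; limma adjusted p = 1.2e-09) in +EMD, unlike its partner. Tyms, which makes thymidylate, was 1.33 ± 0.19 (SE; limma adjusted p = 1.9e-07) higher in +EMD on day 2.

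The same comparisons were counted in 37 other replication genes, a list that covers checkpoint and fork proteins, chromatin assembly and further nucleotide enzymes and that was also chosen with earlier results of these data known. Of these, 22 were higher than wildtype on day 2 in +EMD (10.5% of all genes), 23 in Δ95–99 (12.9%), 17 in Q133H (17.4%), 3 in EMD-/y (4.73%) and 3 in S54F (6.19%). None was called lower, against 6.81%, 7.98%, 14.4%, 2.36% and 3.94% of all genes in the same order. From day 1 to day 2, 23 fell in wildtype (11.7% of all genes), 22 in EMD-/y (11.0%), 25 in S54F (10.7%), 22 in +EMD (9.35%), 20 in Q133H (4.18%) and 15 in Δ95–99 (5.20%). On day 1, 23 were higher than wildtype in +EMD (8.67% of all genes), 15 in Δ95–99 (8.84%), 9 in Q133H (9.34%), 1 in S54F (5.55%) and 0 in EMD-/y (4.02%). The widest ranges were those of Ticrr, which is needed for origins to fire, and Dscc1, part of an alternative clamp loader. Ticrr counts on day 2 were 17.9, 21.1 and 22.2 in wildtype and 194, 245 and 252 in +EMD, with a difference of 3.43 ± 0.26 (SE; limma adjusted p = 8.3e-14). Dscc1 counts were 2.23, 3.51 and 4.68 and 39.2, 52.0 and 57.9, with a difference of 3.52 ± 0.27 (SE; limma adjusted p = 6.4e-14), where the wildtype value rests on few reads.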

How the data were processed

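RNA of 54 libraries, 3 for each of 18 groups of H2K progenitors, was sequenced on the BGISEQ-500 platform. Per the labels and methods, the authors had the reads filtered with SOAPnuke and mapped to mm10 with HISAT2, and DESeq2 was run by their sequencing provider on 2 groups at a time. Versions, the read counter and the annotation are not given in the sources used here. The authors deposited 27 tables of 1 pair of groups each, with 2 columns of signal, which are counts divided by size factors and combined over the libraries of a group. The other deposited columns hold fold changes, p-values and up or down calls of the authors' own comparisons and were not used.

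The 2 signal columns of a row sum to a multiple of its mean over the 6 libraries, and their ratio is the authors' fold change, so only the sums were used, although plain group means had been planned for. Since each group enters several tables with other size factors, the whole reads of each library were solved from these sums. All 19653 genes were solved (100.0%), with a largest relative misfit of 9.62e-15. Leaving out 1 of 7 tables in turn, at least 19651 genes gave back the same reads. Libraries recovered in this way carry no replicate number and are named a, b and c.

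Counts were divided by median-of-ratios size factors. Genes with a mean of at least 10 (13391) were fitted with limma 3.58.1 (R 4.3.3) on log2 of the normalised count plus 1, all 18 groups in 1 fit without covariates, with Benjamini-Hochberg adjustment over all genes tested. A gene was called at an adjusted p under 0.05 and at least 2-fold, the limits of the study's methods. The scripts were tested on simulated data. The members and lists were chosen with earlier results of these data known. In each role the members with the widest and narrowest range of group means were given in full, with the 3 members of largest difference in each kind of comparison and, from 37 other replication genes, the widest ranges. Alternatives were total-count scaling, a pseudocount of 5, no filter, voom weights, only the compared groups, no 2-fold limit, leaving out each library, and leaving out 3 libraries that stood apart, the last added after seeing the data.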

Additional observations from a re-analysis of the deposited data

Results flagged for a closer look

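The change of replication genes from one day to the next differed from the wildtype change, by a limma test of the difference itself at an adjusted p under 0.05 and at least 2-fold, in 8 of 10 comparisons. From day 0 to day 1 the test called 21 members in +EMD (5.59% of all genes were called positive), 16 in Δ95–99 (4.59%), 15 in Q133H (7.42%) and 7 in S54F (2.88%), all positive. From day 1 to day 2 it called 15 members in Δ95–99 (8.08% of all genes were called positive), 11 in +EMD (5.50%), 9 in Q133H and 1 in EMD-/y (0.478%). In Q133H 8 members were called positive, with 10.9% of all genes, and 1 negative, with 4.05% of all genes. The 10 comparisons share the wildtype libraries, so that they are not independent.

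The EMD-/y member was Tk1, with a difference of 1.84 ± 0.46 (SE; limma adjusted p = 0.036). That call was lost, leaving 0 members, with total count scaling, with a pseudocount of 5, with voom weights and with only the compared groups in the fit, and leaving out 1 library at a time gave 0 to 2 members. Of the 9 members in Q133H, 8 had a smaller fall than in wildtype and Rpa2 had a larger one. In +EMD the largest difference was that of Mcm10, and in Δ95–99 that of Pola1, the catalytic subunit of the polymerase that works with primase, at 2.19 ± 0.34 (SE; limma adjusted p = 8.6e-06).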

How the results depend on the processing

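Of the 37 counts of called members against wildtype and between days, 37 stayed within 1.5 times of the reported count without a filter on low counts, 35 with a pseudocount of 5, 35 with only the compared groups in the fit, 34 with voom weights, 31 with scaling by total counts, 28 without the 3 libraries that stood apart and 10 without the 2-fold limit. More of all genes also pass without that limit. In +EMD on day 0, 24.8% of all genes were higher, where 15 members were, and in S54F on day 1, 20.7%, where 32 members were. The shares of all genes in the other comparisons are not given here. The counts without the limit, listed next, are therefore not read as results about the members. Without the 2-fold limit the members called were against wildtype on day 0, 3 in EMD-/y (from 0), 17 in +EMD (from 0), 5 in S54F (from 0), 5 in Δ95–99 (from 0) and 6 in Q133H (from 0), and on day 1, 1 in EMD-/y (from 0), 42 in +EMD (from 27), 33 in S54F (from 2), 38 in Δ95–99 (from 19) and 37 in Q133H (from 11), and on day 2, 13 in EMD-/y (from 4) and 15 in S54F (from 1). Without the 2-fold limit the members called were within a line from day 0 to day 1, 37 in EMD-/y (from 7), 12 in +EMD (from 0), 11 in S54F (from 0), 9 in Δ95–99 (from 0), 10 in Q133H (from 0) and 36 in wildtype (from 10), and from day 1 to day 2, 43 in Δ95–99 (from 18). Without the 2-fold limit the members called were for the difference from the wildtype change from day 0 to day 1, 32 in +EMD (from 21), 22 in S54F (from 7), 33 in Δ95–99 (from 16) and 33 in Q133H (from 15), and from day 1 to day 2, 20 in +EMD (from 11), 3 in S54F (from 0), 26 in Δ95–99 (from 15) and 21 in Q133H (from 9). Without the 3 libraries that stood apart, chosen after seeing the data, they were against wildtype on day 1, 13 in S54F (from 2) and 22 in Q133H (from 11), within a line from day 0 to day 1, 14 in EMD-/y (from 7) and 21 in wildtype (from 10), for the difference from the wildtype change from day 0 to day 1, 19 in S54F (from 7), 26 in Δ95–99 (from 16) and 26 in Q133H (from 15), and from day 1 to day 2, 2 in S54F (from 0) and 14 in Q133H (from 9). Scaled by total counts they were against wildtype on day 1, 1 in EMD-/y (from 0) and 4 in S54F (from 2), and on day 2, 2 in EMD-/y (from 4) and 2 in S54F (from 1), for the difference from the wildtype change from day 1 to day 2, 0 in EMD-/y (from 1) and 1 in S54F (from 0). With a pseudocount of 5 they were against wildtype on day 2, 2 in EMD-/y (from 4), for the difference from the wildtype change from day 1 to day 2, 0 in EMD-/y (from 1). With voom weights they were against wildtype on day 2, 1 in EMD-/y (from 4) and 0 in S54F (from 1), for the difference from the wildtype change from day 1 to day 2, 0 in EMD-/y (from 1). With only the compared groups in the fit they were for the difference from the wildtype change from day 1 to day 2, 0 in EMD-/y (from 1) and 5 in Q133H (from 9). The count as reported stands in parentheses. Leaving out each library in turn gave against wildtype on day 0, 0 to 1 in +EMD, and on day 1, 0 to 1 in EMD-/y, 1 to 13 in S54F and 9 to 22 in Q133H, and on day 2, 1 to 7 in EMD-/y and 1 to 5 in S54F. It gave within a line from day 0 to day 1, 6 to 21 in wildtype, 6 to 14 in EMD-/y and 0 to 1 in S54F. It gave for the difference from the wildtype change from day 0 to day 1, 12 to 28 in +EMD, 4 to 18 in S54F, 9 to 26 in Δ95–99 and 11 to 26 in Q133H, and from day 1 to day 2, 0 to 2 in EMD-/y, 0 to 2 in S54F and 5 to 17 in Q133H. The share of members with the E2F consensus was 63.9% without its first T, when 10.9% of all genes had it. No paired analysis was possible because the libraries could not be tied to the replicate numbers in the labels, so the replicate block was not run, and the ratio of the 2 deposited columns of a table was not run because it is the fold change the study's provider computed. The cause of these shifts was not tested. With 3 libraries a group, 1 library decides many of the day 1 counts. The lowest member values, such as those of Tk1 and Mcm10 in wildtype on day 2, rest on few reads, so their fold changes depend on the pseudocount.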
